A study of Oryctolagus cuniculus with 16 samples.

Results

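The 7 genes described here are SLC6A13, SLC13A4, SLC22A6, SLC22A8, ITIH2, IGFBP2 and TTR, 4 membrane transporters and 3 secreted proteins that were grouped under the name of leptomeningeal genes. They were selected on earlier results of these same libraries, by their intimal values in ligated and sham rabbits, and they are 7 of 13788 gene symbols in the counts. All 7 had a count in at least 1 library. RNA-seq counts were obtained for 16 libraries of laser-microdissected artery wall from 4 female New Zealand white rabbits, 24 h after surgery. Rabbits 3 and 4 had a sham operation and normal flow, and rabbits 5 and 6 had both common carotid arteries ligated, which raises flow in the basilar artery. From each rabbit, the intima and the media were cut separately from sections of the straight basilar artery (BA) and of its terminal bifurcation, the basilar terminus (BT), so that each of the 8 groups held 2 libraries, 1 per rabbit. No rabbit carried a transgene or received a further agent by the labels, and tissue from several sections of 1 rabbit was pooled in each library.

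The leptomeninges, the arachnoid and the pia, cover the brain and sheathe the arteries that run in the subarachnoid space, and the BA and BT lie in that space. Cells of the arachnoid barrier and of the choroid plexus, the epithelium that makes cerebrospinal fluid, carry solutes between this fluid and the blood. SLC6A13 takes up GABA and taurine, SLC13A4 carries sulphate with sodium, and SLC22A6 and SLC22A8 are organic anion transporters that are best known from the kidney and are also used at the borders of the brain. ITIH2 is a heavy chain of the inter-alpha-trypsin inhibitor that is attached to hyaluronan, IGFBP2 binds insulin-like growth factors, and TTR (transthyretin) carries thyroxine and, together with RBP4, retinol. TTR is classically made by liver and choroid plexus, and IGFBP2 and SLC13A4 are known from leptomeninges and choroid plexus alike.

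Each intimal library held 5211886 to 17686105 counts on genes with a symbol, and each medial library 2154863 to 11219236. Levels are given as TMM CPM, counts relative to the library's total after scaling by the trimmed mean of M-values, and each gene is compared only with itself across libraries, since transcript lengths were not used here. A count of 0 allowed up to 3 counts, which was 0.169 to 0.513 CPM for intimal and 0.283 to 1.58 CPM for medial libraries, for counting error only. The endothelial marker PECAM1 was at 179 to 812 CPM in the 8 intimal libraries and at 2.85 to 148 CPM in the 8 medial libraries, and the smooth muscle gene ACTA2 was at 10255 to 71630 CPM in the intima and 63200 to 113194 CPM in the media, so the intimal libraries also held smooth muscle RNA.

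In the intima, the 7 genes stood high in 1 rabbit. The sulphate transporter SLC13A4 was at 501 CPM in the sham BT intima of rabbit 3 and at 6.88 CPM in that of rabbit 4, against 0 CPM in rabbit 5 and 0.988 CPM in rabbit 6 after ligation. In the sham BA intima it was at 42.3 CPM in rabbit 3 and at 0 CPM in rabbit 4, and in the ligated BA intima at 1.81 CPM in rabbit 5 and 2.57 CPM in rabbit 6. Rabbit 3 was therefore high at both locations, while rabbit 4 was above the ligated rabbits at the BT and below them in the BA.

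The GABA and taurine transporter SLC6A13 showed the same order in the intima, with 169 CPM in the sham BT of rabbit 3, 4.68 CPM in that of rabbit 4 and 0 CPM in both ligated BT libraries. Its BA intimal levels were 14.0 CPM in rabbit 3, 0 CPM in rabbit 4, 2.88 CPM in rabbit 5 and 0.171 CPM in rabbit 6. The sham and ligated groups thus did not overlap at the BT and overlapped in the BA.

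The organic anion transporters SLC22A6 and SLC22A8 had no count in any of the 4 ligated intimal libraries. SLC22A6 was at 265 CPM in the sham BT intima of rabbit 3 and 4.25 CPM in that of rabbit 4, and at 5.47 and 0.0747 CPM in the sham BA intima of rabbits 3 and 4. SLC22A8 was at 253 and 0.732 CPM in the sham BT intima of rabbits 3 and 4, and at 3.32 and 0 CPM in the sham BA intima. Of all SLC22A8 expression summed over the 16 libraries, 96.2% lay in the sham BT intima of rabbit 3, the highest such share among the 7 genes.

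Of the secreted proteins, IGFBP2 was the only member counted in all 16 libraries. It was at 1399.8 CPM in the sham BT intima of rabbit 3, 15.8 CPM in that of rabbit 4, and 14.5 and 27.7 CPM in the ligated BT intima of rabbits 5 and 6, so that rabbit 4 lay between the ligated rabbits. In the BA intima it was at 170.4 CPM in rabbit 3, 15.8 CPM in rabbit 4, 15.5 CPM in rabbit 5 and 9.24 CPM in rabbit 6, and the lower sham library stood just above the higher ligated one.

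TTR followed the transporters in the intima. It was at 100.3 CPM in the sham BT of rabbit 3, 0.293 CPM in that of rabbit 4, 3.27 CPM in the sham BA of rabbit 3, and 0 CPM in the sham BA of rabbit 4 and in all 4 ligated intimal libraries. ITIH2 differed less between the sham rabbits, with 34.0 and 6.0 CPM in the sham BT intima of rabbits 3 and 4 and 0 and 0.0823 CPM in the ligated BT intima of rabbits 5 and 6. In the BA intima ITIH2 was at 1.47 and 0.972 CPM in the sham rabbits and at 4.90 and 0.856 CPM in the ligated rabbits, the only member whose intimal mean was higher after ligation at either location.

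**Figure D1:**
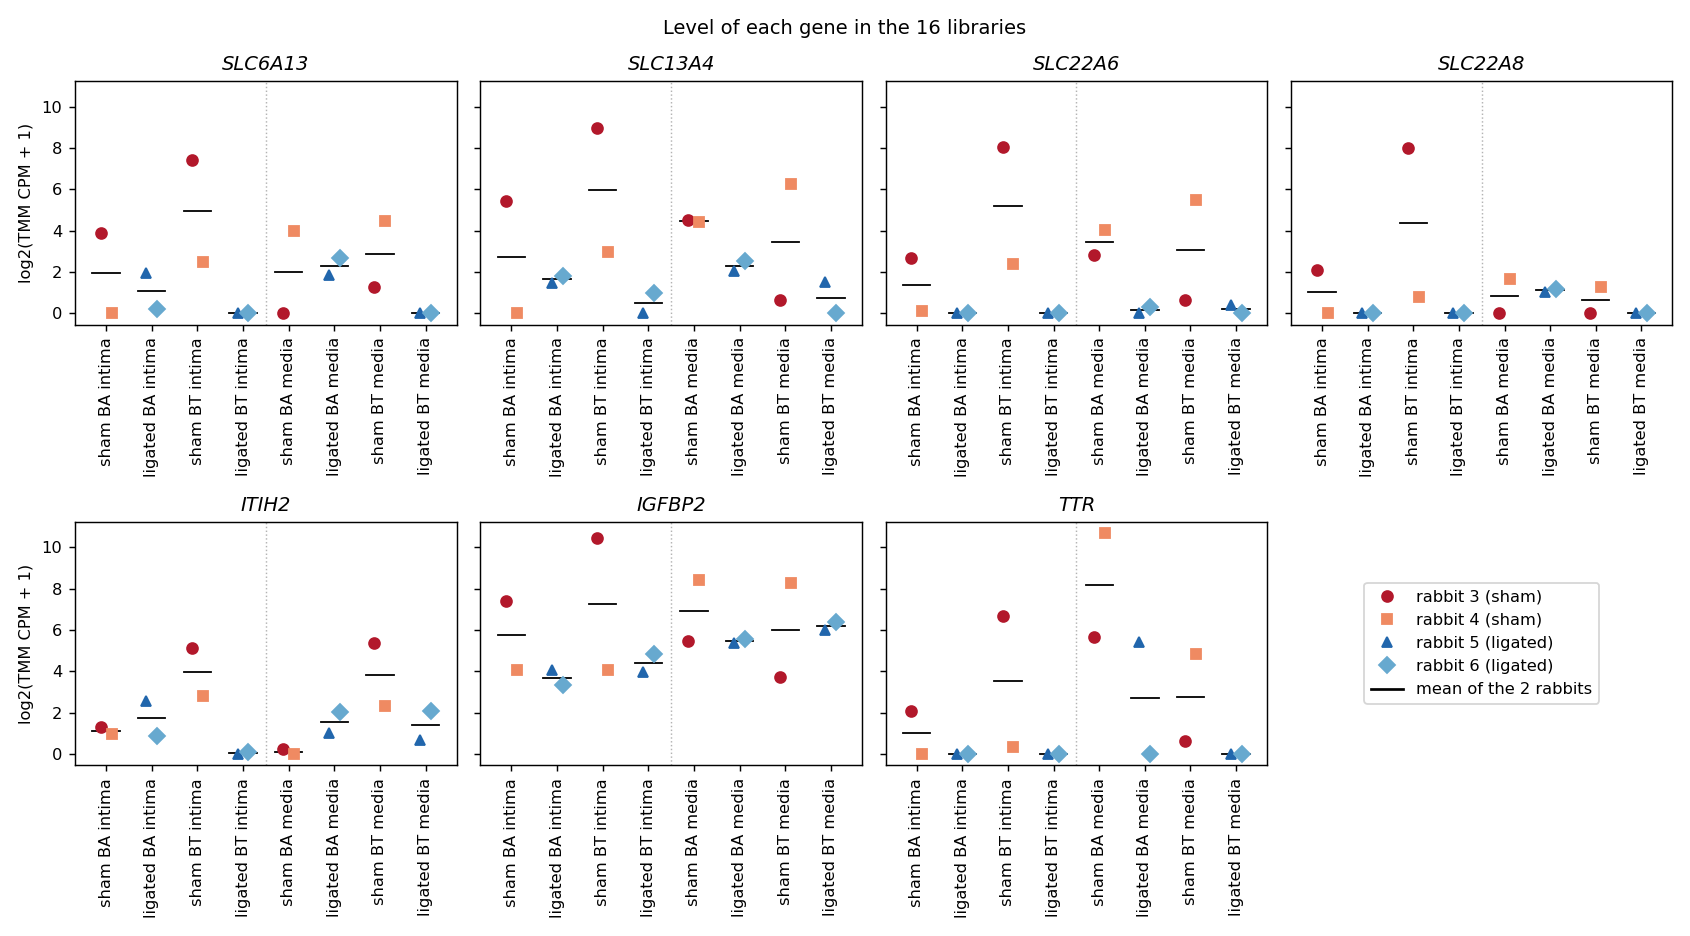
Level of each gene as log2(TMM CPM + 1) in the 8 groups, with intima left and media right of the dotted line; symbols are single libraries by rabbit and bars are the means of the 2 rabbits on this scale. In the intima all 7 genes were highest in the sham BT of rabbit 3, while in the media rabbit 4 held the highest library of every gene but ITIH2.

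Because the genes were selected on the intimal libraries, the size of their intimal difference is a description and was not tested. At the BT, mean levels after ligation were 514-fold lower for SLC13A4, 33.6-fold lower for IGFBP2, and at least 343-, 531-, 500- and 199-fold lower for SLC6A13, SLC22A6, SLC22A8 and TTR, whose ligated libraries had no count and were set at 3 counts each. ITIH2 had 1 count in the ligated BT intima against 543 in the sham, a 596-fold lower share of counts with a counting interval of 107 to 23581. Both sham libraries lay above both ligated libraries for 6 of 7 genes at the BT and for 2 of 7, SLC22A6 and IGFBP2, in the BA. Beside this stood 25.6% and 20.1% of all genes with a mean above 1 CPM in the sham or ligated group. The lower sham value of TTR at the BT was 2 counts and that of SLC22A6 in the BA 1 count, under what a count of 0 allows. Without rabbit 3, 5 members could be fitted at the BT, of which 4 were lower after ligation and IGFBP2 was higher (log2 fold change 0.42), and 4 could be fitted in the BA, of which IGFBP2 was lower and SLC6A13, SLC13A4 and ITIH2 were higher. These are bulk libraries, in which fewer cells of a type and less RNA per cell cannot be told apart.

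The difference between the sham rabbits was itself large. In the sham BT intima, 6 of the 7 genes were at least 5-fold higher in rabbit 3 than in rabbit 4 on the scale of CPM + 1, beside 6.45% of all genes with a mean above 1 CPM. In the sham BA intima this held for 4 of 7 genes, beside 4.85% of genes. Between the 2 ligated rabbits none of the members passed this fold in the intima, where 4 members at the BA and 1 at the BT were above a mean of 1 CPM. Of 8715 genes with a mean above 1 CPM in the intima, 14.4% were highest in the sham BT intima of rabbit 3, as were all 7 members.

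The selection was by intimal values. In the media, cut from the same rabbits, the high library was that of the other sham rabbit for every gene but ITIH2. SLC13A4 was at 0.581 CPM in the sham BT media of rabbit 3 and 76.1 CPM in that of rabbit 4, against 1.87 and 0 CPM in the ligated rabbits 5 and 6. In the BA media it was at 21.7 and 20.8 CPM in sham rabbits 3 and 4 and at 3.16 and 4.72 CPM in ligated rabbits 5 and 6, so that here the sham rabbits were close to each other and both above the ligated ones.

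SLC6A13 was at 1.45 and 21.0 CPM in the sham BT media of rabbits 3 and 4 and at 0 CPM in both ligated BT libraries. In the BA media it was at 0 and 14.9 CPM in the sham and 2.64 and 5.50 CPM in the ligated rabbits, and the groups overlapped. SLC22A6 was at 0.581 and 44.2 CPM in the sham BT media and at 0.312 and 0 CPM in the ligated BT media. Its BA medial levels were 6.22 and 15.2 CPM in sham rabbits 3 and 4, and 0 and 0.262 CPM in ligated rabbits 5 and 6, and both sham libraries stood above both ligated libraries in the BA, while at the BT rabbit 3 had 2 counts and rabbit 5 had 1, which cannot be told from 0. SLC22A8, the other organic anion transporter, reached only 2.13 CPM in the media, in the sham BA of rabbit 4. The highest medial library was thus the sham BA media of rabbit 4 for SLC22A8 and the sham BT media of rabbit 4 for the 3 other transporters. SLC22A8 was at 0 CPM in both sham medial libraries of rabbit 3 and both ligated BT media, at 1.45 CPM in the sham BT media of rabbit 4, and at 1.05 and 1.31 CPM in the ligated BA media of rabbits 5 and 6.

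IGFBP2 was at 43.1 and 337 CPM in the sham BA media of rabbits 3 and 4 and at 40.6 and 47.2 CPM in the ligated BA media of rabbits 5 and 6. In the BT media it was at 12.2 and 309 CPM in the sham and at 64.2 and 82.7 CPM in the ligated rabbits, so that rabbit 3 had the lowest and rabbit 4 the highest level. ITIH2, in contrast, was highest in the sham BT media of rabbit 3, at 40.4 CPM, with 4.03 CPM in rabbit 4 and 0.623 and 3.27 CPM in the ligated rabbits. In the BA media ITIH2 was at 0.189 and 0 CPM in the sham and 1.05 and 3.15 CPM in the ligated rabbits, and 3 of these 4 libraries had 2 counts or fewer.

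TTR was highest in the sham BA media of rabbit 4, at 1672 CPM from 10219 counts. TTR was at 49.8 CPM in the sham BA media of rabbit 3, and at 42.2 and 0 CPM in the ligated BA media of rabbits 5 and 6. In the BT media it was at 0.581 and 27.9 CPM in the sham and at 0 CPM in both ligated rabbits. TTR thus peaked at the other location and in the other layer from the transporters, and 88.2% of its summed level lay in that 1 medial library.

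The question put to the media was whether the genes also differed between ligated and sham rabbits there. No member passed the q-value threshold of 0.05 in edgeR's quasi-likelihood test with Benjamini-Hochberg adjustment over all genes. In the BA media 0 of 7 members were called, beside 0.805% of all genes tested, with q from 0.201 to 0.985. At the BT 0 of 6 were called, beside 2.34% of genes, with q from 0.0792 to 0.561, and SLC22A8 was not tested because its mean stayed below 1 CPM in both groups. At an unadjusted p below 0.05 there were 4 of 7 members in the BA media, beside 13.6% of genes, and 5 of 6 in the BT media, beside 15.9% of genes. DESeq2 called 1 member in the BA media, IGFBP2, and 3 in the BT media, SLC6A13, SLC22A6 and TTR. It also called more of all genes, 495 of 8817 in the BA media and 585 of 8803 at the BT, against 71 and 206 in edgeR.

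The fitted differences were mostly below 0. In the BT media the log2 fold change of ligated over sham was -9.26 (SE 2.43) for TTR, -8.92 (SE 2.36) for SLC6A13, -7.51 (SE 2.00) for SLC22A6 and -5.68 (SE 1.82) for SLC13A4, with edgeR q of 0.0804, 0.0817, 0.0792 and 0.141. Against 3 counts in each ligated library, mean levels were at least 22.2-fold lower for TTR and at least 17.4-fold lower for SLC6A13. The median over the 6 members tested was -6.60, beside 0.03 over all genes. Both sham libraries were above both ligated ones for 4 of the 7 genes at the BT, SLC6A13, SLC22A6, ITIH2 and TTR. The lower sham values of SLC22A6 and TTR there were 2 counts each. In the BA this held for 3 of the 7, SLC13A4, SLC22A6 and TTR. Beside this stood 23% at the BT and 25.8% in the BA of all genes with a mean above 1 CPM in the sham or ligated group. At the BT, SLC22A8 was not above that mean. SLC22A6 at the BT rested on 1 count in the ligated against 276 in the sham libraries, a ratio of 337 with a counting interval of 60.0 to 13351.

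In the BA media the log2 fold change was -5.84 (SE 1.76) for SLC22A6, -5.40 (SE 1.88) for TTR, -2.38 (SE 0.88) for SLC13A4 and -2.07 (SE 0.79) for IGFBP2, with edgeR q of 0.201, 0.262, 0.295 and 0.309. SLC6A13 was at -0.80 (SE 1.97) and SLC22A8 at 0.22 (SE 2.80), while ITIH2 was at 4.12 (SE 2.93) from 14 counts in the ligated against 2 in the sham libraries, a 20.5-fold higher share of counts with an interval of 4.71 to 186. SLC22A6 had 1 count in the ligated and 159 in the sham BA media, a ratio of 54.3 (9.61 to 2158). The median over the 7 members was -2.07, beside -0.14 over all genes.

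**Figure D2:**
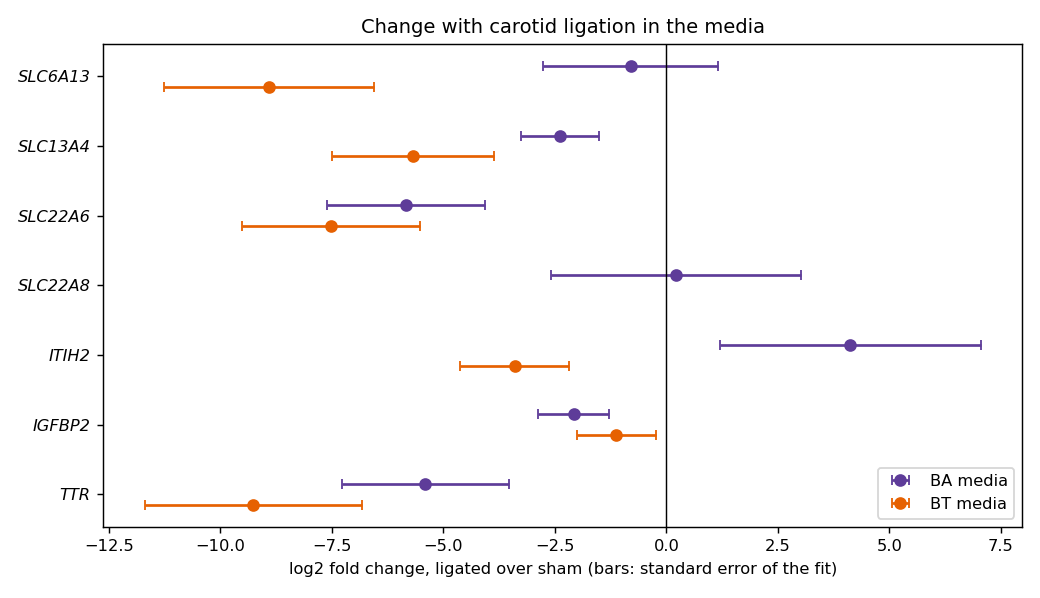
Log2 fold change of ligated over sham libraries in the BA and BT media for each gene tested, with bars for the standard error of the fit over 2 rabbits a group; SLC22A8 was not tested at the BT. The BT values of SLC6A13, SLC13A4, SLC22A6 and TTR lie between -9.26 and -5.68, and ITIH2 lies on opposite sides of 0 at the 2 locations, 4.12 in the BA and -3.40 at the BT.

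Single rabbits decided several of these values. In the BT media, 7 of 7 members were lower after ligation without rabbit 3, where the lone sham library was that of rabbit 4. Without rabbit 4, 2 of the 3 that could be fitted were lower. IGFBP2 had a log2 fold change of -1.12 (SE 0.88, q = 0.561) in edgeR's fit of all 4 rabbits. It was -2.06 without rabbit 3 and 2.61 without rabbit 4, so its direction in the BT media depended on which sham rabbit was kept. ITIH2 was at -4.23 without rabbit 4. In these fits the lone sham library was assumed to vary like the ligated pair.

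The intima and the media of each rabbit were cut from the same sections, which allows the layers to be compared within a rabbit. In rabbit 3, 5 of 7 genes were higher in the intima than in the media of the BA and 6 of 7 in that of the BT. In rabbit 4 the order was the opposite, with 6 of 7 genes higher in the media at both locations. SLC13A4 at the BT went from 501 CPM in the intima to 0.581 CPM in the media in rabbit 3, and from 6.88 to 76.1 CPM in rabbit 4. IGFBP2 at the BT was 115-fold higher in the intima in rabbit 3 and 19.5-fold lower in the intima in rabbit 4. The layer with the higher levels was thus a different one in each sham rabbit.

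The intimal libraries of both flow groups had entered the selection, so a test of the layers is not independent of it. Its results for the members are read as a description. The layer difference was tested only in the ligated rabbits. There edgeR's quasi-likelihood test with a replicate block of rabbit and location called 0 of 5 members tested, beside 2.08% of all genes, with q from 0.442 to 0.898 and 0 at an unadjusted p below 0.05. DESeq2 called TTR, whose value rested on 80 counts in the BA media of rabbit 5 and no count in the 7 other ligated libraries. Beside it, DESeq2 called 1152 of 8766 genes in this comparison. IGFBP2 was lower in the intima in 4 of 4 ligated pairs, by 2.61- and 5.11-fold in the BA and 4.42- and 2.99-fold at the BT in rabbits 5 and 6, with a log2 fold change of -1.87 (SE 1.24, q = 0.474 in edgeR). The layers of all 4 rabbits were fitted together, and without the sham rabbit 3 that value of IGFBP2 was -1.87 with q = 0.0172. The 4 ligated pairs came from rabbits 5 and 6, with both locations from each, and are not independent. With counts summed per rabbit, 0 of 8776 genes were called. SLC22A6 and SLC22A8 were too low to be tested.

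**Figure D3:**
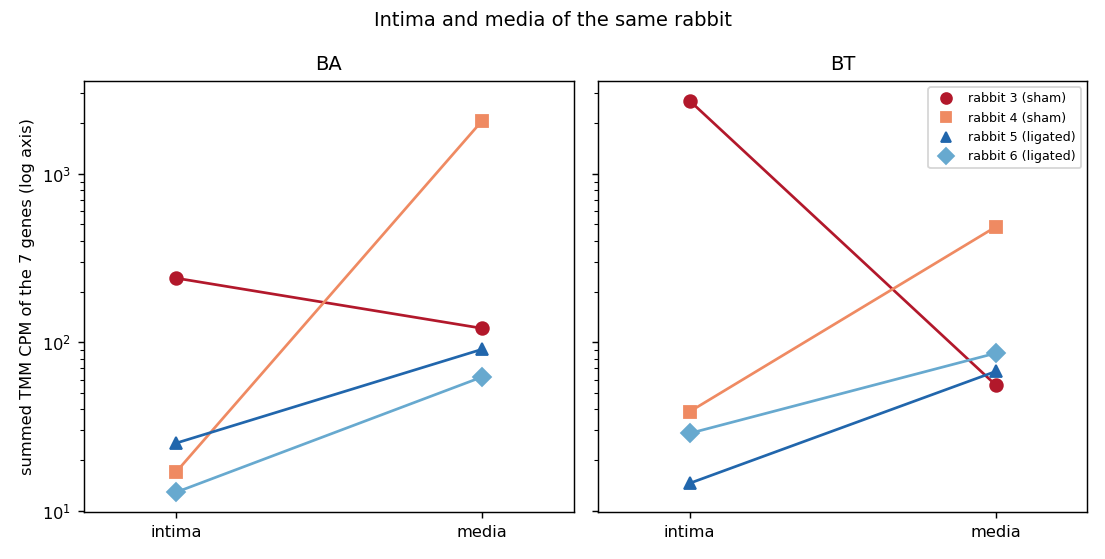
Summed TMM CPM of the 7 genes in the intima and the media of the same rabbit, on a log axis, for the BA and the BT; each line joins the libraries of 1 rabbit. Rabbit 3 falls from 2721 to 55.8 CPM at the BT while rabbit 4 rises from 38.6 to 484 CPM, and in the ligated rabbits the intima is lower at both locations.

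Between the locations, 7 of 7 genes had their higher intimal level at the BT in rabbit 3. This difference was 8.22-fold for IGFBP2, 11.8-fold for SLC13A4, 12.03-fold for SLC6A13, 23.2-fold for ITIH2, 30.7-fold for TTR, 48.4-fold for SLC22A6 and 76.0-fold for SLC22A8. The genes were thus raised at the BT by unequal folds, with the organic anion transporters at the top. In rabbit 4, 6 of 7 genes were higher at the BT, from lower levels. In the ligated rabbits 0 genes were higher at the BT in rabbit 5 and 1, IGFBP2, in rabbit 6. Intimal levels had chosen the genes and these differences were not tested.

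In the media the BT was compared with the BA over 4 rabbits, with rabbit as a replicate block. TTR was called, and it was the only member called of 7, beside 0.0226% of genes, or 2 of 8847. Its log2 fold change of BT over BA was -6.22 (SE 0.45, edgeR q = 3.52e-05). TTR was lower at the BT in 3 of 4 rabbits, with 59.9-fold less in rabbit 4, a ratio of 85.7 from 2 counts at the BT in rabbit 3 (counting interval 23.6 to 709) and at least 45.1-fold less in rabbit 5, while rabbit 6 had no count at either location. Without rabbit 4 the value was -7.06 with q = 0.621, and without the replicate block it was -6.20 with q = 0.524. In both settings 0 genes of the whole table were called. The lost call therefore cannot decide whether the TTR difference rested on rabbit 4 or on the pairing by rabbit.

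The other gene called was HP, haptoglobin, a plasma protein that binds free haemoglobin, at -2.79 (SE 0.42, edgeR q = 0.0473), a call lost without rabbit 3, 4 or 5 (q of 0.0872, 0.621 and 0.134) and without the replicate block (q = 0.383). HP was at 275, 705, 161 and 82.6 CPM in the BA media of rabbits 3, 4, 5 and 6 and at 12.2, 79.5, 32.7 and 33.2 CPM in the BT media. HP, like the members, was also high in the sham BT intima of rabbit 3, at 634 CPM. Of the blood and plasma list, ALB and FGA had no count in any library, APOA1 and FGB reached 0.146 and 0.527 CPM at most, and in the sham BA media of rabbit 4 both APOA1 and FGB were at 0 CPM. TF, transferrin, was at 34.8 CPM in that library and at most 120 CPM in the media. The part of these genes' source in the TTR result was not tested. The other members had edgeR q from 0.997 to 0.998 between the locations of the media.

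The genes moved together across intimal libraries, as the choice of members implies. Over the 8 intimal libraries the median Pearson's r of log2(TMM CPM + 1) over the 21 pairs of genes was 0.93 and the median Spearman's rho 0.76, with 21 of 21 pairs above 0. The lowest intimal r was 0.68, between ITIH2 and IGFBP2, and that of SLC22A8 with TTR rounded to 1.00. Without the sham BT intima of rabbit 3 the median r was 0.83 over 7 libraries, and without both intimal libraries of rabbit 3 it was 0.73 over 6. The 8 libraries came from 4 rabbits, with both locations from each, and no p-value is attached to these correlations.

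Over the 8 medial libraries the median r was 0.61, with 16 of 21 pairs above 0. Without both medial libraries of rabbit 4 it was -0.03 over 6 libraries, so that the medial co-variation lay in that rabbit. The transporters kept the closest pairs in the media, with an r of 0.92 both for SLC13A4 with SLC22A6 and for SLC6A13 with SLC22A8. SLC22A8 had more than 3 counts in only 3 of the 8 medial libraries and reached at most 2.13 CPM, so its r rests on values near 0. ITIH2 left the group, with an r of -0.43 to the mean of the other 6 genes in the media against 0.82 in the intima. TTR had an r of 0.61 to the mean of the others in the media and 0.98 in the intima.

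**Figure D4:**
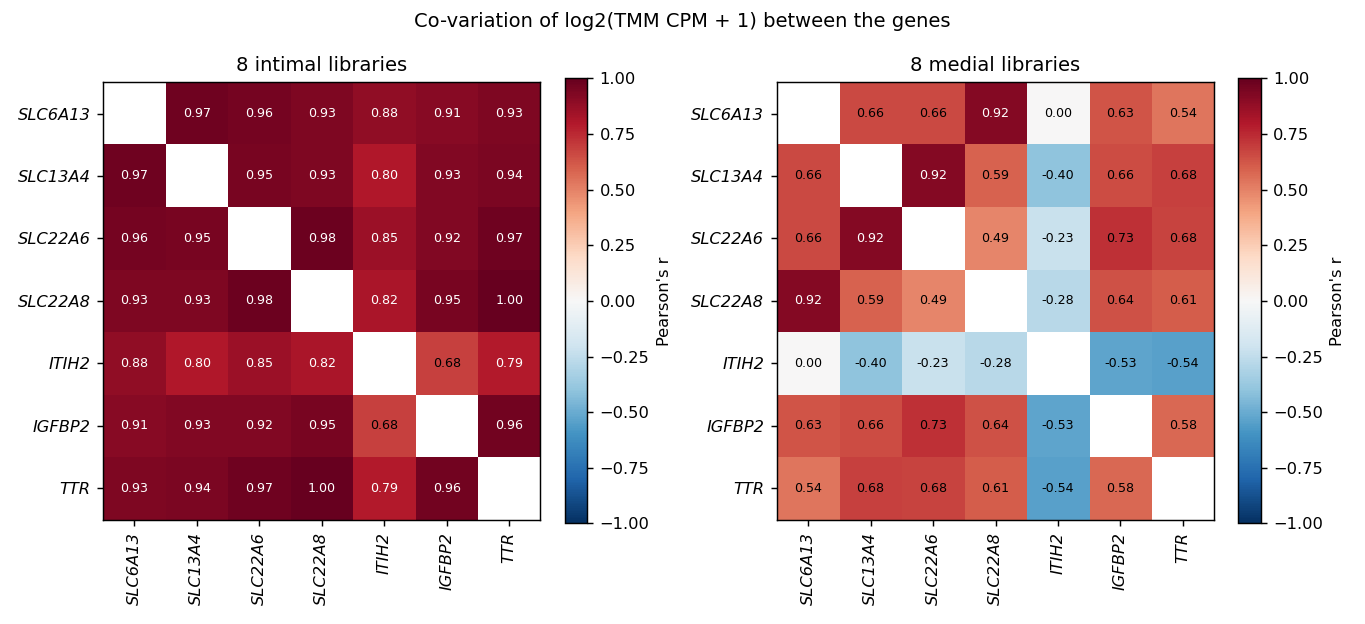
Pearson's r of log2(TMM CPM + 1) between the 7 genes over the 8 intimal libraries (left) and the 8 medial libraries (right), from -1 in blue to 1 in red. All 21 intimal pairs are above 0, while in the media the pairs of ITIH2 with IGFBP2 and with TTR are at -0.53 and -0.54.

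The ratio of counts of 2 genes within a library does not depend on the scaling between libraries. SLC13A4 to SLC6A13 was 2.96 (counting interval 2.83 to 3.10) in the sham BT intima of rabbit 3, 3.02 (2.61 to 3.50) in its BA intima and 3.63 (2.98 to 4.44) in the sham BT media of rabbit 4, but 1.40 (1.06 to 1.85) in the sham BA media of rabbit 4, and in the sham BA media of rabbit 3 there were 230 counts of SLC13A4 and 0 of SLC6A13. IGFBP2 to SLC13A4 was 2.80 (2.72 to 2.87) in the sham BT intima of rabbit 3, 4.03 (3.71 to 4.37) in its BA intima and 4.06 (3.67 to 4.50) in the sham BT media of rabbit 4. In the sham BA media it was 1.99 in rabbit 3 and 16.2 in rabbit 4, the lowest and the highest among the 5 libraries with over 100 counts of SLC13A4.

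Other ratios varied widely. SLC22A6 to SLC22A8 was 1.05 (1.00 to 1.10) in the sham BT intima of rabbit 3 and 30.4 (15.8 to 67.3) in the sham BT media of rabbit 4, a library in which SLC22A6 had 274 counts and SLC22A8 9. TTR to SLC13A4 was 0.200 (0.189 to 0.212) in the sham BT intima of rabbit 3, 0.367 in the sham BT media of rabbit 4, 2.30 in the sham BA media of rabbit 3 and 80.5 (67.5 to 96.6) in the sham BA media of rabbit 4. The 7 genes therefore did not stand in 1 fixed proportion in all libraries where they were high, and intervals here cover counting error only.

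The name of the group was checked against 10 of 16 leptomeningeal markers with a row in the counts. The summed level of the 10 markers was 1279.5 CPM in the sham BT intima of rabbit 3, against 148 to 428 CPM in the 7 other intimal libraries. In the media it was 327 to 926 CPM, highest in the ligated BA media of rabbit 5, where the 7 genes summed to 90.7 CPM. Of that highest medial sum, 559 CPM were ALDH1A2 alone. The r of the summed level with the mean of the members was 0.88 over the intimal libraries and 0.30 over the medial libraries. ALDH1A2, a retinoic acid synthesising enzyme of meningeal fibroblasts, rose in the BA media after ligation (log2 fold change 2.48, SE 0.38, edgeR q = 0.0302), the only 1 of 9 tested markers called there, while 0 of 9 were called in the BT media with 3 at an unadjusted p below 0.05 and 2 called by DESeq2.

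Within the list, r with the mean of the members over the intimal libraries was 0.97 for CDH1, 0.96 for DPP4 and 0.93 for GJB2 and GJB6. It was 0.89 for NGFR, 0.82 for ZIC4, 0.63 for TBX18, 0.56 for LAMA1, 0.48 for ALDH1A2 and 0.34 for CRABP2. CDH1, DPP4, GJB2 and GJB6, epithelial-type markers of the arachnoid barrier, were singled out after their values were seen. CDH1, or E-cadherin, was at 46.01 CPM in the sham BT intima of rabbit 3 and at most 3.44 CPM in the other 15 libraries. The gap junction genes GJB2 and GJB6 were at 82.9 and 129 CPM there and had an r of 0.87 each with the mean of the members over 16 libraries. DPP4 was at 148 CPM there and at most 6.86 CPM elsewhere. ALDH1A2, CRABP2, a retinoic acid binding protein, and TBX18, a transcription factor of mural cells and meninges, had an r of 0.32, 0.11 and 0.53 over 16 libraries. Over the 8 medial libraries alone the order differed. There r was 0.84 for GJB2, 0.72 for GJB6, 0.30 for CDH1 and 0.23 for DPP4. For TBX18 and LAMA1 it was 0.82 and 0.78, and for CRABP2 and ALDH1A2 -0.16 and -0.21. Some markers of the list were thus high in the same intimal library as the 7 genes, while the list as a whole was not highest in the medial libraries of rabbit 4.

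**Figure D5:**
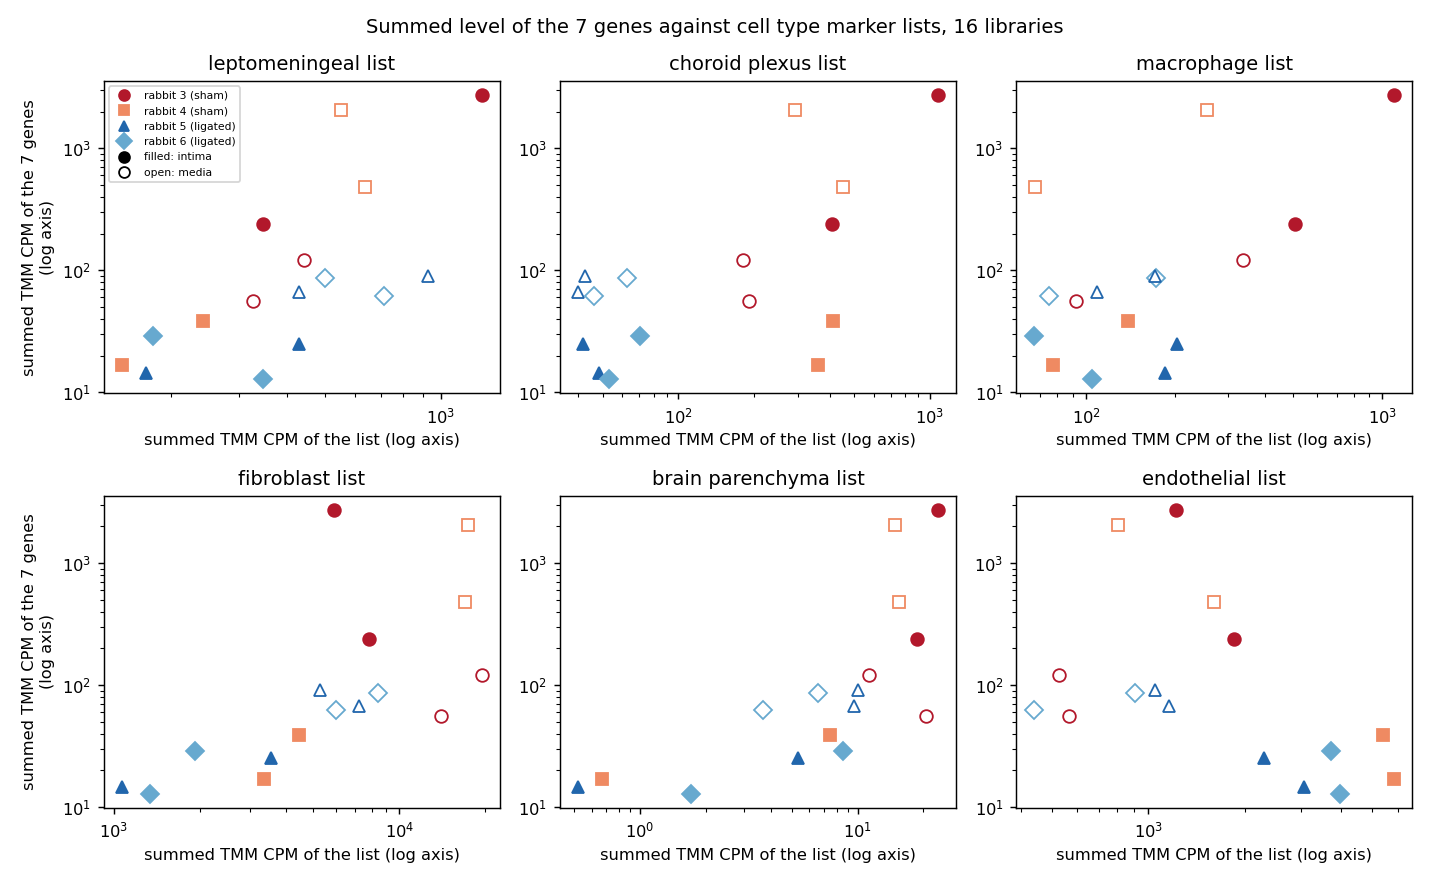
Summed TMM CPM of the 7 genes against the summed TMM CPM of 6 marker lists in the 16 libraries, both on log axes, with symbols by rabbit, filled for intima and open for media. The sham BT intima of rabbit 3 is highest for the genes and for the leptomeningeal, choroid plexus, macrophage and brain parenchyma lists, and is lowest of the intimal libraries for the endothelial list at 1221 CPM.

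Markers of other cell types moved with the same library. Of the 9 choroid plexus markers in the counts, the summed level was 1081 CPM in the sham BT intima of rabbit 3 and 41.7 to 412 CPM in the other intimal libraries, but 851 of these 1081 CPM were KCNJ13, a potassium channel. OTX2, KL and SLC4A5 were at 0 CPM there, and PRLR and FOLR1 at 0.135 and 1.29 CPM. TRPM3 had its highest level there, 11.4 CPM, with an r to the members of 0.96 in the intima and 0.08 in the media. For SLC4A10 these r were 0.91 and 0.88, with at most 7.26 CPM, in the sham BT media of rabbit 4. In the sham BA media of rabbit 4, where TTR was highest, OTX2 was at 3.11 CPM, FOLR1 at 1.64 CPM, and KL and PRLR at 0 CPM. OTX2 was at 0 CPM in the 15 other libraries, and FOLR1 was highest in that one. ENPP2, a lysophospholipase of this list, fell after ligation in the media of the BA (log2 fold change -2.77, SE 0.41, edgeR q = 0.0293) and the BT (-2.66, SE 0.43, q = 0.00814), and was the 1 marker called of 6 tested in the BA and of 4 at the BT.

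The 10 macrophage markers summed to 1097 CPM in the sham BT intima of rabbit 3, 506 CPM in its BA intima and 66.8 to 203 CPM in the 6 other intimal libraries. In the sham BT media of rabbit 4 they summed to 67.3 CPM, the lowest of the 8 medial libraries, while the 7 genes were at 484 CPM. The 6 fibroblast markers, by contrast, were at 13974 to 19447 CPM in the sham media and 5293 to 8399 CPM in the ligated media. DCN, COL1A2 and COL3A1, matrix genes of that list, fell in the BA media, with log2 fold changes of -1.71, -1.49 and -1.68 and edgeR q of 0.0472, 0.0472 and 0.0354, and COL3A1 fell at the BT by a log2 fold change of -1.44 (edgeR q = 0.0249). Brain parenchyma markers summed to at most 23.4 CPM, with AQP4, MOG and MAG at 0 in all 16 libraries, and the endothelial list ran against the members in the intima, at an r of -0.77. The part of these cell types in the values of the 7 genes was not tested.

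Of the transporters related to the members, 19 of 23 SLC6, SLC13 and SLC22 genes had a row in the counts. None of them was called in the BA media (0 of 10 tested, 1 at an unadjusted p below 0.05), the BT media (0 of 8, 2 at that p), the layer comparison in ligated rabbits (0 of 6, 2 at that p) or the locations of the media (0 of 9, 1 at that p), and DESeq2 called 0, 0, 2 and 0. Their median log2 fold change after ligation was -1.15 for the BA media and -0.86 at the BT, beside -0.14 and 0.03 over all genes. SLC22A3, an organic cation transporter, did not follow the members, at 39.2 CPM in the sham BT intima of rabbit 3 and 210.2 and 233 CPM in the sham BT media, with no call. Its r with the mean of the members over 16 libraries was 0.20. For SLC22A15, SLC6A6 and SLC22A4, also among the highest of the list, r was -0.15, 0.16 and -0.02. Some low relatives did follow the members, with an r of 0.85 for SLC6A12, 0.83 for SLC6A20 and 0.77 for SLC13A3. These reached at most 4.87, 12.6 and 6.97 CPM.

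Among 8 barrier transporters in the counts, SLC7A11, the cystine and glutamate exchanger, fell after ligation in the BA media (log2 fold change -5.13, SE 0.73, edgeR q = 0.0241) and in the BT media (-9.87, SE 1.79, q = 0.0168), and was the 1 gene called of 7 and of 8 tested. ABCB1, the drug efflux pump of endothelium, was higher in the intima than in the media of ligated rabbits (2.64, SE 0.59, q = 0.0484). This call was lost with counts summed per rabbit and the replicate block (q = 0.195), without the block (q = 0.152) and without rabbit 4, 5 or 6 (q of 0.0576, 0.0941 and 0.338).

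Partners of the secreted members gave few calls. Of the inter-alpha-trypsin inhibitor genes, TNFAIP6, which transfers the heavy chains to hyaluronan, rose in the BT media (log2 fold change 5.64, SE 0.57, edgeR q = 9.30e-04) and ITIH5 fell (-2.20, SE 0.51, q = 0.0442), out of 5 tested, while AMBP and ITIH1 had no count in any library. ITIH5 was at 324 CPM in the sham BT intima of rabbit 3. In the insulin-like growth factor list, IGFBP6 fell in the BA media (-1.63, SE 0.29, q = 0.0472) as the 1 gene called of 6, and 0 of 6 were called at the BT, with 1 at an unadjusted p below 0.05 and 0 in DESeq2. IGFBP6 was highest, at 1728 CPM, in the sham BT intima of rabbit 3. RBP4, the retinol-binding partner of TTR, was at 222 CPM there and at 108 CPM in the sham BA media of rabbit 4, and 0 of the 3 retinol transport genes were called in any tested comparison, with 1 at an unadjusted p below 0.05 in the BA media, and with 2 at the BT, both called by DESeq2, and 0 by either measure in the other tested comparisons.

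The calls of these list genes after ligation were also checked with each rabbit left out, which left 1 library in a group. A call lost in such a fit cannot decide whether it rested on that rabbit, since fewer libraries were tested. In the BA media the calls of ALDH1A2, ENPP2, SLC7A11, IGFBP6, DCN, COL1A2 and COL3A1 were lost whichever rabbit was left out. Almost no gene of the whole table was called in those fits. In the BT media TNFAIP6 passed in each such fit, with q up to 0.00773, but not in 1 fit of all 16 libraries (q = 0.299). ENPP2, ITIH5 and COL3A1 lost their BT call without rabbit 5 or 6, with q from 0.0634 to 0.322, and SLC7A11 without rabbit 4, 5 or 6, with q from 0.0600 to 0.184.

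The genes most like the mean of the 7 members over the intimal libraries, out of 8708 genes ranked by Pearson's r, were CA3, TRIM9, CST6, RGS17, SPATA16, MAPK4, PRDM6, ASPA, UST and DNASE1L3, with r from 0.98 to 0.99. All 10 were highest in the sham BT intima of rabbit 3, and 7 of them had no count in 5 of the 8 intimal libraries. CA3, a carbonic anhydrase, was at 139 CPM there, 2.78 CPM in rabbit 4 and 8.34 CPM in the sham BA intima of rabbit 3. ASPA, aspartoacylase, was at 186, 4.68 and 11.1 CPM in the same libraries. RGS17 had an r of -0.48 with the members in the media, and ASPA one of 0.84.

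Over all 16 libraries the nearest genes included CST6, KCNJ13, PRDM6, ASPA, EPHX1, CA3, CRABP1, LRRC17 and DSG2, with r from 0.90 to 0.94. EPHX1, microsomal epoxide hydrolase, was at 768 CPM in the sham BT intima of rabbit 3, at 113 CPM in the sham BA media of rabbit 4 and between 1.90 and 52.4 CPM in the 14 other libraries. CRABP1, a retinoic acid binding protein, was at 845 and 81.3 CPM in those 2 libraries. KCNJ13 was at 851 CPM in the first and 101 CPM in the second. For these 3 genes the 2 highest of the 16 libraries were those of the summed members, the sham BT intima of rabbit 3 and the sham BA media of rabbit 4.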

How the data were processed

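RNA was laser-microdissected from intima or media, with 1 rabbit and 1 location per library, 24 h after surgery. The authors amplified it with SMART-Seq v4, made Nextera libraries, aligned single reads with STAR to the oryCun2 build, and assigned unique alignments to Ensembl genes with featureCounts 1.6.2. The authors deposited whole-number counts, 1 row a gene symbol, without normalization. The entry without a symbol, 13.8% to 18.7% of a library, was left out of totals and tests, and dates had replaced 22 symbols. Amplified reads without molecular identifiers are not independent molecules.

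The 7 members and the gene lists were chosen with earlier results of these data known. Intimal comparisons of flow and location, the layers of sham rabbits and co-variation are therefore descriptions. The layers of ligated rabbits were tested, but their intimal libraries had also entered the choice of members. Those q-values of members are not independent of that choice. Tests used edgeR 4.0.16 (TMM, quasi-likelihood F test, legacy = TRUE, R 4.3.3) on genes with a mean above 1 CPM in a group, since lengths for RPKM were not used here, with Benjamini-Hochberg adjustment over all genes tested and q below 0.05. Ligated and sham rabbits were different animals, compared 2 against 2. Layers and locations came from the same animals, so rabbit, or rabbit and location, was a replicate block. Deviations of same-rabbit libraries from group means correlated at -0.03 to 0.41. Pairs of 1 rabbit are not independent. The 2 rabbits of a group differed by a chi-square of 22.5 to 456 per degree of freedom, so no library was a repeat.

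Folds against libraries without a count used 3 counts per library. With 1 to 3 counts in a group, the ratio of summed counts has a 95% exact binomial counting interval. Named genes were drawn from the members, the 10 nearest genes, list genes past the threshold, and up to 4 highest genes of a list. List genes also called were LMOD1 and MYH11, lower after ligation in the BT media. Between the layers of ligated rabbits CLDN5, EMCN and CD14 were called higher in the intima, and DES, LUM, COL1A2 and COL3A1 lower. Others were named after their values were seen. A result for 1 gene is not reported here. Tests were checked on simulated data. Alternatives were RLE scaling, library size alone, all genes with a count, DESeq2 1.42.0, edgeR's version 4 form, 1 fit of 16 libraries, no replicate block, counts summed per rabbit and leaving out each rabbit, and for co-variation linear CPM, a pseudocount of 0.1 in place of 1 and Spearman's rho. Python 3.11.15, numpy 2.4.6, scipy 1.17.1, pandas 2.3.3 and matplotlib 3.10.9 were used. No sequences or coordinates are given.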

Additional observations from a re-analysis of the deposited data

Results flagged for a closer look

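SLC6A13, the GABA and taurine transporter, moved in opposite directions between the BT and the BA in the 2 flow groups. In sham rabbits it was higher at the BT in 4 of 4 pairs of libraries, by a mean of 41.8 CPM (49.0 CPM at the BT and 7.23 CPM in the BA, over intima and media). In ligated rabbits it was lower at the BT in 4 of 4 pairs, by a mean difference of -2.80 CPM (0 CPM at the BT and 2.80 CPM in the BA). The difference between the flow groups was not tested, since the intimal libraries had entered the choice of the gene. The 4 pairs of a group were 2 layers of 2 rabbits and are not independent. The intimal pair of rabbit 6 differed by 1 count. The medial pairs of rabbits 3 and 5 had 5 counts at 1 location and 0 at the other. The mean of the sham pairs lay mostly in rabbit 3, at 169 CPM in the BT intima.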

How the results depend on the processing

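Of 529 gene values recomputed under other settings, 442 stayed on their side and within their error, 65 moved, 19 passed the threshold where they had not, 2 no longer passed it and 1 reversed, IGFBP2 in the BT media without rabbit 4 (2.61, against -2.06 without rabbit 3). The count of members past the threshold in the BA media was 2 with all genes with a count and 1 with DESeq2, against 0. Over the whole table those settings called 507 and 495 genes, against 71. In the BT media it was 5 with all genes with a count and 3 with DESeq2, against 0, beside 557 and 585 genes called in all, against 206. In the layers of ligated rabbits it was 1 with DESeq2, against 0, and 0 to 1 leaving out each rabbit. For BT against BA in the media it was 0 without the replicate block, against 1, and 0 to 1 leaving out each rabbit. The replicate block changed no other member's call, and without it HP also was not called, since 0 genes were.

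Of the descriptions, members lower after ligation numbered 1 to 7 in the BA intima and 4 to 7 in the BT intima leaving out each rabbit. The lowest counts came without rabbit 3, where 4 and 5 members had a fitted value. Members lower in the intima of sham rabbits were 4, against 1 without the replicate block, 2 with counts summed per rabbit and the replicate block, and 0 to 6 leaving out each rabbit. Members lower in the BT intima than in the BA intima were 0, against 1 with library size alone, 2 with DESeq2, 1 without the replicate block and 0 to 3 leaving out each rabbit, of 5 fitted without rabbit 3 and 7 otherwise. The median correlation was 0.76 as Spearman's rho, 0.61 in the media, 0.70 over 16 libraries, 0.83 without the sham BT intima of rabbit 3 (chosen after seeing the data) and 0.73 to 0.95 leaving out each rabbit.

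Genes called over the whole table also moved: 71 in the BA media were 507 with all genes with a count, 495 with DESeq2, 7 in edgeR's version 4 form, 40 in 1 fit of 16 libraries and 0 to 2 leaving out each rabbit. At the BT 206 were 557, 585, 150, 19 and 13 to 641. In the layers of ligated rabbits 182 were 242, 1152 and 508, 0 with counts summed per rabbit, and 0 to 252 leaving out each rabbit. For BT against BA in the media 2 were 71, 52 and 1, and 0 to 4 leaving out each rabbit. Scaling by library size alone moved the median log2 fold change of all genes in the media from -0.14 to -0.29 in the BA and from 0.03 to 0.18 at the BT, and in the layers of ligated rabbits from -0.02 to 0.22. The split of higher and lower calls went from 38 and 33 to 33 and 53 in the BA media, from 102 and 104 to 126 and 68 at the BT, and from 107 and 75 to 185 and 44 in the layers. The cause of these changes was not tested. With 2 rabbits a group and several members near 0 counts, levels below 0.169 to 1.58 CPM could not be told from 0.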
